A study of Mus musculus with 74 samples.

Results

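The fatty acid elongases *Elovl1*, *Elovl2*, *Elovl3*, *Elovl5*, *Elovl6* and *Elovl7* and the desaturases *Fads1* and *Fads2* were examined in mouse liver. They were picked by gene symbol: 8 of the 14583 rows of the RNA-seq table, and 637 of the 743949 peak rows of 11 chromatin immunoprecipitation (ChIP-seq) tables, where a peak belongs to the gene its annotation names. The study removed subunits of a corepressor complex, or the nuclear receptor PPARα, and asked how transcripts, histone marks and factor binding changed. All mice were C57BL/6, 8 to 12 weeks old and fed normal chow. *Gps2* LKO, *Ncor* LKO and *Smrt* LKO mice carried the floxed gene and the Alb-Cre transgene, whose albumin promoter is active in hepatocytes, so that other liver cells kept the gene. Floxed mice without Cre served as WT in the *Gps2* line. *Ppara* KO mice lacked the gene in the whole body. RNA-seq had 4 libraries each of *Gps2* LKO and WT. The ChIP comparisons had 3 libraries a group, except for 2 a group for H3K27ac and H3K4me3 in the *Gps2* line and for PPARα in the *Ppara* line, and 1 a group for GPS2 and RNA polymerase II (Pol II) in the *Gps2* line. RNA libraries held 13194385 to 20086127 reads and ChIP libraries 7.9 to 46.1 M tags.

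Elongases catalyse the rate-limiting condensation that lengthens a fatty acyl chain with malonyl-CoA in the endoplasmic reticulum, and desaturases insert double bonds. In liver, *Fads2* and *Fads1* act with *Elovl5* and *Elovl2* to convert linoleic and alpha-linolenic acid to arachidonic and docosahexaenoic acid, whereas *Elovl6* lengthens palmitate and *Elovl1*, *Elovl3* and *Elovl7* lengthen saturated and monounsaturated chains. GPS2, NCOR and SMRT are subunits of one corepressor complex, and PPARα is the fatty acid receptor that switches on lipid catabolism and several of these genes. H3K27ac marks active promoters and enhancers, and H3K4me3 marks active promoters.

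Some of the regions named in the binding results are printed here as they stand in the mm9 genome, plus strand, 5′ to 3′. *Fads1* and *Fads2* lie head to head on chromosome 19 with starts 81.4 kb apart (*Fads2* chr19:10138654-10175993, minus strand, *Fads1* chr19:10257378-10271360, plus strand). The *Fads2* peak lies in the space between them, -20981 bp from the *Fads2* start. The first *Elovl5* peak lies -68593 bp from the *Elovl5* start, and the other lies 26165 bp inside the gene (chr9:77765171-77832326, plus strand). The *Elovl2* peak lies -7837 bp from the start of that gene (chr13:41277864-41315774, minus strand). Capitals mark a match on either strand to a direct repeat of the hexamer AGGTCA with 1 base between (the element called DR1, to which PPARα binds with RXR), with at most 1 mismatch, in the *Fads2* peak and in the first *Elovl5* peak. In the other *Elovl5* peak they mark a lone hexamer, read on the minus strand. The *Elovl2* peak held neither, which says only that these letters are not in this window. Neither was in the *Elovl3* peak at -21538 bp or the *Elovl6* peak at -61 bp, which are not printed. Both were called lower in *Ppara* KO. The last sequence is the Pol II peak over the start of *Elovl3* (chr19:46206387-46210184, plus strand), the member whose transcript fell.
Fads2, chr19:10196881-10197067: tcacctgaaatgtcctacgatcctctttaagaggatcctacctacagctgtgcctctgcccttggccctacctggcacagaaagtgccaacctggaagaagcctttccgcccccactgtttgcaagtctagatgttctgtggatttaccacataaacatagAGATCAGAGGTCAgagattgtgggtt
Elovl5, chr9:77696480-77696679: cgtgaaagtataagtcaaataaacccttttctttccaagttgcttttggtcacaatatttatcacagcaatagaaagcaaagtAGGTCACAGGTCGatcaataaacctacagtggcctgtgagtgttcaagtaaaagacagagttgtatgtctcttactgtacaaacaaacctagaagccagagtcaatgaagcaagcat
Elovl5, chr9:77791219-77791456: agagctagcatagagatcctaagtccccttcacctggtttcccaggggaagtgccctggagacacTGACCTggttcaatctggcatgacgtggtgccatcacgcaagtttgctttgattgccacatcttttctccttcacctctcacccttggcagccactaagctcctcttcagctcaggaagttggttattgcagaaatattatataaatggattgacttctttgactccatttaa
Elovl2, chr13:41323516-41323702: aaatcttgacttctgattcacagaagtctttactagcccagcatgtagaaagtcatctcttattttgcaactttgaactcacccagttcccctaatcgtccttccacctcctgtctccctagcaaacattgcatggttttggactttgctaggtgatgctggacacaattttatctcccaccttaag
Elovl3, chr19:46206280-46206492: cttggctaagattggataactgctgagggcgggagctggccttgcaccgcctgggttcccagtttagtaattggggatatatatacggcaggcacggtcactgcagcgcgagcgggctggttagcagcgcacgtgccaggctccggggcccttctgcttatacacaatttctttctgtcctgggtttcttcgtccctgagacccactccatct

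Within 100 bp of the peak centre, such a DR1 match was present in 2 of 52 member peaks of the PPARα table from the *Ppara* line, beside 3.14% of 40214 peaks in that table. The hexamer alone was present in 13 of 52 member peaks and in 32.6% of all peaks. The same repeat with 4 bases between (DR4, the element of the receptor LXR) was present in 0 of 52 and 0.639%. A match is a description and not a binding site.

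Some libraries stood apart. RNA library 2 of *Gps2* LKO varied most from its group. Without it 6 members were called higher and 1 lower, with a median log2 fold change of 0.78. In the *Smrt* line, all 6 H3K27ac libraries held 0 tags in the Y-chromosome peaks and 249 to 289 normalized tags (scaled to a library of 10000000 tags) at *Xist*, the RNA that coats the inactive X chromosome. In the *Ncor* line those values were 306 to 371 and 2.93 to 4.92, and the methods describe male mice. WT and LKO matched within each line, so only the comparison between those lines is touched. The 3 PPARα libraries of *Gps2* WT differed by less than the sampling noise and were counted as 1 sample. The labels do not say that replicate libraries came from separate mice, so p-values measure only the spread between these libraries.

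*Gps2* itself was measured at 255 ± 11.3 normalized counts (SD, n = 4) in WT and 177 ± 30.6 in LKO livers (log2 fold change -0.53, SE 0.11, edgeR adjusted p = 0.0021). Of the 8 members, 6 rose, 1 fell and 1 did not pass the test in *Gps2* LKO livers (edgeR quasi-likelihood test, Benjamini-Hochberg adjusted p under 0.05). Of the 12220 genes tested, 23.4% were called higher and 21.4% lower. The median log2 fold change was 0.89 over the members and 0.03 over all genes. In whole liver, fewer cells of a type and less RNA per cell cannot be told apart.

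The desaturases both rose. *Fads1*, which makes arachidonic and eicosapentaenoic acid, stood at 10174, 10326, 10096 and 9909 normalized counts in the WT libraries and at 20968, 23300, 20103 and 20621 in LKO (log2 fold change 1.08, SE 0.06, edgeR adjusted p = 7.58e-09). *Fads2*, which carries out the step that starts the pathway, stood at 9037, 9231, 9294 and 9094 in WT and at 15276, 20825, 17274 and 15041 in LKO (0.91, SE 0.09, edgeR adjusted p = 3.42e-06). The groups did not overlap for either gene, and LKO library 2 was the highest for both.

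The elongases of polyunsaturated chains rose by a similar amount. *Elovl5*, which acts between the desaturases, was measured at 6890, 6778, 6635 and 7035 normalized counts in WT and 12672, 13836, 11854 and 13064 in LKO (log2 fold change 0.92, SE 0.06, edgeR adjusted p = 4.49e-08). *Elovl2*, which lengthens the longest of these chains towards docosahexaenoic acid, was measured at 14077, 14199, 14017 and 14659 in WT and 24824, 30323, 23742 and 25062 in LKO (0.88, SE 0.07, edgeR adjusted p = 6.5e-07). Every LKO library lay above every WT library.

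The elongases of saturated and monounsaturated chains went in different directions. *Elovl3* fell: its normalized counts were 907, 819, 821 and 839 in WT and 135, 119, 110 and 169 in LKO (log2 fold change -2.68, SE 0.11, edgeR adjusted p = 4.62e-10). Among the 12220 genes tested, it had the 22nd largest decrease. *Elovl6* rose from 6805, 6960, 6953 and 6980 to 10211, 11591, 9413 and 10406 (0.60, SE 0.06, edgeR adjusted p = 8.09e-06). *Elovl1*, the ubiquitous elongase of very long saturated chains, stood at 708, 632, 633 and 659 in WT and at 706, 603, 543 and 666 in LKO, groups that overlapped (-0.06, SE 0.09, edgeR adjusted p = 0.609). *Elovl7* rose from a low level, 4.95, 3.79, 7.41 and 11.2 normalized counts in WT against 29.6, 30.6, 20.6 and 22.2 in LKO (1.93, SE 0.30, edgeR adjusted p = 0.000249), and rested on 4 to 11 reads a library in WT and 17 to 38 in LKO.

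**Figure D1:**
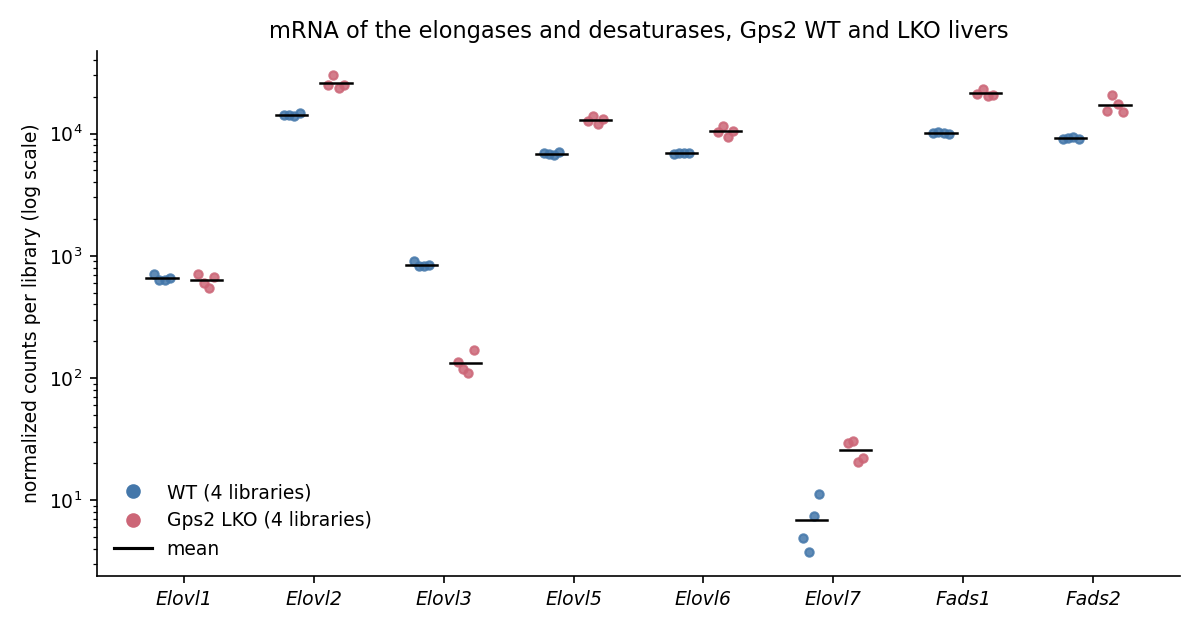
Normalized RNA-seq counts (log axis) of the 8 members in 4 WT (blue) and 4 *Gps2* LKO (red) liver libraries, where points are libraries and bars are group means. The groups separate for every member except *Elovl1*, and *Elovl3* is the only member whose LKO libraries (110 to 169) lie below WT (819 to 907). Of the 12220 genes tested, 23.4% were called higher and 21.4% lower, and the share whose groups separate was not counted.

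Levels can be ordered between genes once divided by transcript length. In WT, *Fads2* was the highest at 6077 ± 79.0 normalized counts per kb (SD, n = 4), followed by *Elovl2* at 3593 ± 73.3, *Fads1* at 2928 ± 50.1 and *Elovl5* at 2458 ± 61.1. *Elovl6* came next at 1164 ± 13.6, then *Elovl3* at 450.5 ± 21.8, *Elovl1* at 339 ± 18.5 and *Elovl7* at 1.26 ± 0.601 per kb. No neighbours in this order overlapped between libraries. In LKO, *Elovl3*, at a mean of 70.9 per kb, moved below *Elovl1*, at 325, and the rest of the order was the same. Fold changes declined with transcript length across genes (Spearman's rho -0.403 across genes, which are not independent replicates), and with that trend removed *Elovl1* was called lower (-0.18, edgeR adjusted p = 0.0378) and the calls of the other 7 members held.

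Over the 8 RNA libraries, the genes whose log2 levels ran most like a member's were, by Pearson's r, *Ces3b* for *Elovl3* (0.9985), *Abcg5* for *Fads1* (0.9986), *Reln* for *Fads2* (0.9974), *Cyp2c38* for *Elovl5* (0.9963), *Cldn1* for *Elovl6* (0.9969), *Mrc1* for *Elovl7* (0.988) and *Il18* for *Elovl1* (0.977). For *Elovl2* it was *Elovl6* itself (0.996), and *Fads1* was the gene after *Cyp2c38* for *Elovl5*. *Scd1* came after *Reln* for *Fads2*. These values are descriptions, since all 8 libraries share the split into WT and LKO.

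The enzymes around the members moved to different degrees. Of the 6 other elongases and desaturases tested, 2 rose, *Scd2* (log2 fold change 1.22) and *Scd1* (0.73), the stearoyl-CoA desaturases that make monounsaturated chains, and 1 fell, *Fads6* (-0.54), with a median of 0.12. Of the 8 genes that supply malonyl-CoA and fatty acids, 7 rose and 0 fell, with a median of 0.72. Among them were *Me1*, malic enzyme (0.94), *Acly*, ATP citrate lyase (0.83), *Acss2*, acetyl-CoA synthetase (0.75), and *Thrsp*, a nuclear protein that promotes lipogenesis (0.93).

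The genes for the remaining steps moved less. Of 5 genes of the later steps of the elongation cycle, *Tecr*, the enoyl-CoA reductase, rose (0.23) and *Hsd17b12*, the ketoacyl-CoA reductase, fell (-0.34), and *Tecr* was no longer called with the length trend removed. Of 5 electron donors of the desaturases, *Cyb5r3*, cytochrome b5 reductase, rose (0.49) and *Cyb5b* fell (-0.22). Of 11 regulators of lipogenic genes, 4 rose and 4 fell, including *Insig1* (0.42), *Srebf1* (0.30), which encodes the lipogenic factor SREBP-1, *Nr1h2* (0.27), which encodes LXRβ, and *Srebf2* (-0.56). With the length trend removed these counts were 3 and 1.

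Genes that use the members' products gave mixed counts. Of 8 genes that activate or remodel polyunsaturated acyl chains, 3 rose and 2 fell, including the acyl-CoA synthetases *Acsl5* (0.72), *Acsl4* (0.32), *Acsl3* (0.29) and *Acsl1* (-0.29). Of 10 genes of peroxisomal chain shortening, which completes docosahexaenoic acid, 3 rose and 2 fell, including the transporter *Abcd2* (1.61), the thiolase *Acaa1b* (1.09), *Scp2* (-0.48) and *Hsd17b4* (-0.18). Of 8 genes that build ceramides from very long acyl chains, 4 rose and 0 fell: *Cers4* (0.80), *Cers6* (0.63), *Sptssa* (0.55) and *Kdsr* (0.20).

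*Elovl3* is known to be higher in male than in female mouse liver and to follow the circadian clock, so both groups of genes are given beside it. Of 14 male-biased liver genes 12 fell and 0 rose, with a median of -1.04, among them *Mup7* (-2.91), *Cyp7b1* (-2.64), *Bcl6* (-1.85) and *Hsd3b5* (-1.48). All 12 female-biased genes tested rose, with a median of 4.51, among them *Cyp2b9* (8.74), *Cyp2a4* (8.51), *Cyp2c40* (4.28) and *Acot3* (3.98). Summed over the 16 female-biased genes measured, tested or not, the level ran from 970 to 1108 normalized counts in WT and from 23570 to 28000 in LKO. Of 16 clock genes 3 rose and 5 fell (5 and 5 with the length trend removed), with a median of -0.08, including *Bhlhe41* (-1.84), *Clock* (-1.15), *Hlf* (-0.87) and *Nr1d1* (-0.52). Their part in the *Elovl3* result was not tested.

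Markers of other liver cells also moved. Of 10 Kupffer cell and macrophage markers 9 rose and 0 fell (summed level 2736 to 2809 in WT, 3714 to 4368 in LKO). All 10 stellate cell and fibroblast markers rose (3446 to 3603 against 6463 to 6673), and 4 of 10 endothelial markers did (3541 to 3663 against 4020 to 4266), counts that became 7 for the Kupffer cell list and 8 for the endothelial list with the length trend removed. Of 7 cholangiocyte markers tested 3 rose (1061 to 1136 against 1490 to 1818, summed over all 8 of the list). The 1 lymphocyte marker tested was called lower while the summed levels of that list overlapped (48.6 to 66.7 against 54.0 to 67.4). The hepatocyte markers were present throughout, with 4 of 10 higher and 2 lower and a median of 0.14, and no marker of these lists was at 0 in every library. The part of these cells in the member results, including *Elovl7*, was not tested.

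H3K4me3 rose over the starts of several members in *Gps2* LKO livers. Of 57 member peaks in the table of both marks, 13 overlapped deposited H3K4me3 peaks and were tested, of which 5 rose and 0 fell, beside 0.798% of all peaks called higher and 0.118% called lower. Testing every peak of the shared table, whichever mark it carries, left 1 called, and leaving out LKO library 1 left 3. The median log2 fold change was 0.19 over the members and 0.04 over all peaks. Values for all marks and factors are normalized tags, with edgeR's test. Over *Elovl5*, the values were 820 and 777 in WT and 1312 and 1256 in LKO (0.68, SE 0.06, adjusted p = 0.000123). Over *Fads2* they were 1341 and 1631 against 2130 and 1943 (0.46, adjusted p = 0.0224), and over *Elovl2* 1065 and 999.6 against 1454 and 1354 (0.44, adjusted p = 0.00523).

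*Elovl3*, whose transcript fell, was called higher in H3K4me3 as well. That is by the main test, most of whose member calls were lost when every peak was tested. The peak over its start and body (chr19:46204904-46212197) held 524 and 515 tags in WT and 769 and 688 in LKO (log2 fold change 0.49, SE 0.07, edgeR adjusted p = 0.00462). Both LKO libraries lay above both WT libraries. The remaining called peak lay far upstream of *Elovl5* (chr9:77691963-77700179) and rose from a mean of 59.6 to 129.8 (1.12, SE 0.21, edgeR adjusted p = 0.0237). The single tested peaks of *Elovl1*, *Elovl7* and *Fads1* (0.05, 0.19 and 0.05) and both of *Elovl6* (median -0.14) did not pass.

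For H3K27ac in the *Gps2* line, 34 of 57 member peaks were tested, of which 1 rose and 0 fell, beside 1.21% higher and 0.212% lower over all peaks. The median was 0.12 over the members and 0.06 over all peaks. The called peak covered the start and the first intron of *Elovl5* (chr9:77763649-77780109), with 820 and 860 in WT against 1238 and 1239 in LKO (0.56, SE 0.08, edgeR adjusted p = 0.0224). The *Fads2* peak (chr19:10151033-10180197) held 1279 and 1379 in WT against 1886 and 1705 in LKO, without overlap, and did not pass (0.43, edgeR adjusted p = 0.0646). The *Elovl3* peak held 384 and 409 against 472.5 and 449 (0.22, edgeR adjusted p = 0.281), and the *Elovl6* promoter 1170 and 1077 against 1011 and 850 (-0.27, edgeR adjusted p = 0.27). DESeq2 called 4 member peaks.

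Pol II was profiled in a single library of each genotype, so each value carries a 95% interval (exact, Poisson) for the error of counting alone, and no test was made. Over the *Elovl3* start the printed peak held 75.5 normalized tags (60.5 to 93.0) in WT and 33.6 (24.0 to 45.8) in LKO, a log2 ratio of -1.16. Over both *Elovl3* peaks the sum was 91.8 in WT and 41.2 in LKO. The sums of the other members differed less, at 96.1 and 96.7 for *Elovl1*, 361 and 413 for *Elovl2*, 461 and 423 for *Elovl5*, 465 and 457 for *Fads1*, 297 and 344 for *Fads2* and 22.3 and 21.0 for *Elovl7*. Of 30 member peaks 2 were higher and 2 lower by more than 1 on the log2 scale, beside 7.57% and 5.07% of all peaks. The 2 higher ones lay upstream of *Fads2*, one of them over its printed region (12.0 in WT, interval 6.57 to 20.2, and 26.9 in LKO, interval 18.4 to 38.0), and the intervals of both pairs overlap. The *Elovl3* intervals at the start do not.

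GPS2 binding was lower at every member peak in the *Gps2* LKO library. Of 48 member peaks, 48 were lower by more than 1 on the log2 scale and 0 higher, beside 99.5% and 0.102% of all peaks, so the members did as the genome did (median -4.58 and -4.13). Scaled by TMM, 25 member peaks were lower and 1 higher. The sums over each gene's peaks, in the same unit, went from 342 (95% interval 313.5 to 372.4) to 4.73 (1.90 to 9.75) at *Elovl5*, from 184 to 6.09 at *Elovl2*, from 127.8 to 5.41 at *Fads2*, from 99.4 to 4.06 at *Fads1* and from 99.4 to 2.70 at *Elovl3*. *Elovl1* held the least GPS2, at 26.5 in WT and 0.676 in LKO. In all, 7.07% of tags lay in peaks in WT and 0.31% in LKO. Of the 48 GPS2 peaks, 41 (85.4%) overlapped a PPARα peak of the same line by at least 1 bp, beside 87.7% of all GPS2 peaks.

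NCOR binding at the members was not shown to change in *Gps2* LKO livers. Of 60 member peaks 0 were called either way by edgeR and 0 by DESeq2, 3 had an unadjusted p under 0.05, and 0.0124% of all peaks were called higher and 0.00495% lower. The peak that came nearest lay at -455 bp of the *Elovl3* start, with 8.14, 9.85 and 6.96 in WT and 0.939, 2.06 and 0.542 in LKO, without overlap (-2.75, SE 0.65, edgeR adjusted p = 0.0927). It was chosen after its values were seen. The strongest peaks stood at a mean of 79.1 in WT and 77.1 in LKO upstream of *Fads2*, and 94.5 and 86.5 inside *Elovl5*.

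PPARα peaks of the members were higher in *Gps2* LKO livers to about the extent that all PPARα peaks were. Of 84 member peaks 17 rose and 0 fell, beside 21.5% higher and 0.147% lower over all peaks, and the medians were 0.57 and 0.62. Since the WT libraries entered as 1 sample, the spread in this test, and so its calls and adjusted p-values, rests on the 3 LKO libraries alone. The share of tags in peaks was 19.2% to 21.9% in the WT libraries and 28.9% to 32.1% in LKO. Scaled by TMM, which takes most peaks as unchanged, 0 member peaks rose and 1 fell and both medians were near 0 (-0.03 and 0.02), so the direction rests on scaling by total tags. With the WT libraries as 3 samples, 38 were called.

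The member peaks that rose held a mean of 1.85 to 90.5 in WT, and the strongest ones were not among them. *Fads1* and *Fads2* had 5 each, *Elovl2* and *Elovl5* 3 each and *Elovl7* 1. The lowest adjusted p was for a peak 64751 bp downstream of the *Elovl5* start, which went from 2.53, 1.90 and 1.13 in WT to 14.9, 9.47 and 11.7 in LKO (2.65, SE 0.66, edgeR adjusted p = 0.00185). In the space between the desaturase genes, the peaks at -12231 and -15575 bp of *Fads1* rose by 1.24 and 1.54 (edgeR adjusted p = 0.00372 and 0.00465), and the one at -14507 bp of *Fads2* rose by 1.23 (edgeR adjusted p = 0.00487).

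The strongest PPARα peaks were not called. A called peak of *Elovl5*, at -71265 bp, was nearly as strong in WT as the *Elovl3* peak given below. Its mean went from 90.5 in WT to 159.4 in LKO (0.79). Over the printed *Fads2* region the values were 206, 203 and 205 in WT and 241, 254 and 179 in LKO (0.12, edgeR adjusted p = 0.727), and over the printed *Elovl5* intron region 189, 183 and 178 against 257, 218 and 189 (0.26). At -21572 bp of *Elovl3* they were 96.2, 94.0 and 90.2 against 118, 123 and 128, without overlap (0.40, edgeR adjusted p = 0.209), and at its promoter 43.0, 54.1 and 56.4 against 21.8, 51.2 and 53.4. PPARα at *Elovl3* was therefore not shown to differ where the transcript differed most.

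In *Ncor* LKO livers H3K27ac rose at 9 of 57 member peaks and fell at 0, beside 2.32% and 0.801% of all peaks. The medians were 0.13 over the members and -0.00 over all peaks. The 9 peaks belonged to *Elovl3*, *Elovl5* and *Elovl6*, with 3 each. The *Elovl3* body went from 221, 265 and 194 in WT to 565, 389 and 546 in LKO (1.14, SE 0.16, edgeR adjusted p = 0.00676), and the peak at -21913 bp from 60.1, 65.2 and 56.8 to 110, 132 and 157 (1.13, edgeR adjusted p = 0.00606). Of the 4 *Elovl3* peaks 3 were called, all without overlap between the groups.

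At *Elovl5* and *Elovl6* the called peaks lay both near the start and far from it. The *Elovl5* peak at -69188 bp, which spans the first printed *Elovl5* region, went from 324, 352 and 320 to 884, 702 and 774 (1.24, SE 0.11, edgeR adjusted p = 0.00152), and the one at -24739 bp from 15.1, 15.8 and 20.4 to 38.0, 45.6 and 44.0 (1.31, edgeR adjusted p = 0.00606). The peak over the *Elovl5* start and first intron (chr9:77756874-77782185) went from 1023, 1073 and 1151 to 1566, 1684 and 1358 (0.50, edgeR adjusted p = 0.0292). The *Elovl6* peak 17979 bp inside the gene, in its intron 2 (chr3:129248090-129258477), went from 144, 131 and 139 to 307.5, 281 and 288.5 (1.08, SE 0.10, edgeR adjusted p = 0.00204). The desaturases gave lower values that did not pass, at *Fads2* 1020, 1197 and 1329 in WT against 890, 928 and 960 in LKO (-0.35, edgeR adjusted p = 0.124) and at *Fads1* -0.39 (edgeR adjusted p = 0.159).

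In *Smrt* LKO livers 0 of 57 member peaks were called by edgeR and 0 by DESeq2, 2 had an unadjusted p under 0.05, and 0% of all peaks were called higher and 0% lower. The *Elovl3* body held 50.2, 99.1 and 49.98 in WT and 25.2, 68.9 and 87.6 in LKO, groups that overlapped (-0.14, edgeR adjusted p = 0.968). *Elovl5* held 2435, 2685 and 2085 against 2346, 2265 and 2502. WT levels differed between the lines: H3K27ac summed over the *Elovl3* peaks ran from 334 to 463 in *Ncor* WT and from 145 to 203 in *Smrt* WT, which cannot be told apart from the difference in *Xist* and Y-chromosome tags given above.

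The difference between the *Ncor* and *Smrt* effects was tested directly. It passed at 2 of 57 member peaks, both higher in *Ncor* LKO, with 0 lower, beside 0.33% and 0.0959% of all peaks. Both lie in *Elovl6*. The peak at 17979 bp, whose *Ncor* values are given above, held 170, 180 and 201 in *Smrt* WT and 191, 207 and 200 in *Smrt* LKO (difference of the log2 fold changes 0.96, SE 0.14, edgeR adjusted p = 0.0122). The peak at 32183 bp (chr3:129260170-129274804) went from 525, 551 and 543 to 835, 742 and 801 with *Ncor* and stood at 530, 470 and 504 against 466, 505 and 479 with *Smrt* (0.61, SE 0.11, edgeR adjusted p = 0.0344). The call at 17979 bp held with any of the 12 libraries left out, with an edgeR adjusted p of up to 0.0442. The one at 32183 bp was lost without *Ncor* WT library 1, 2 or 3, *Ncor* LKO library 1 or 3, *Smrt* WT library 1 or *Smrt* LKO library 1 or 3, with an edgeR adjusted p of 0.0509 to 0.101. At the *Elovl3* body the difference was 1.28 with an SE of 0.48 and did not pass (edgeR adjusted p = 0.311), nor did the far upstream *Elovl5* peak (0.86, edgeR adjusted p = 0.238).

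**Figure D2:**
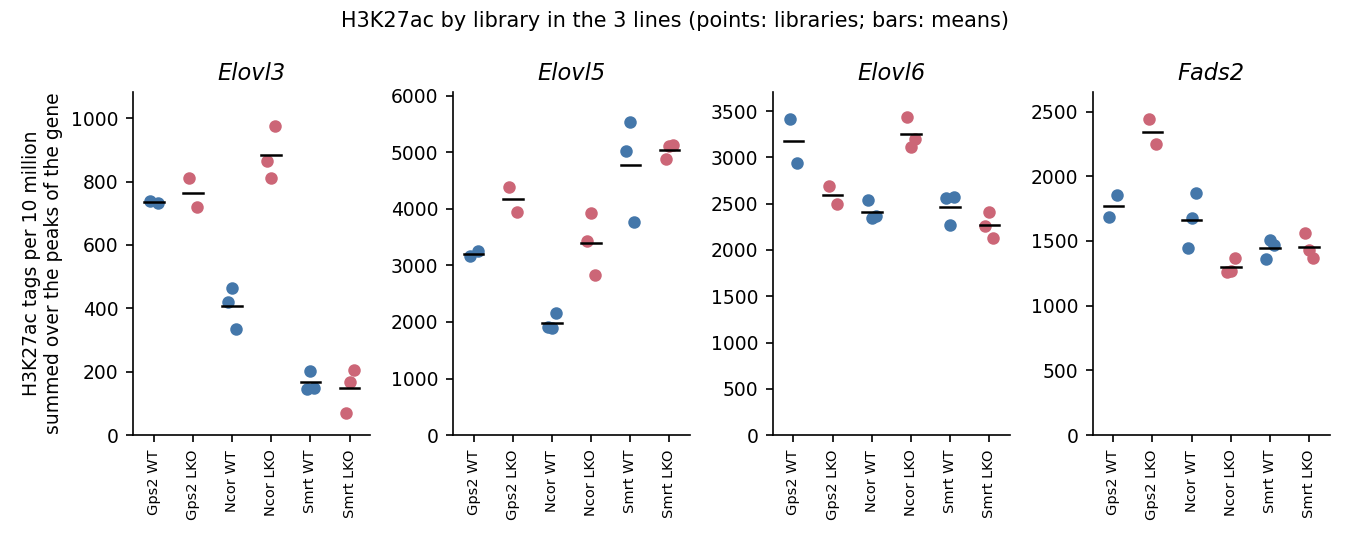
Normalized H3K27ac tags (per 10000000 tags) summed over the peaks of *Elovl3*, *Elovl5*, *Elovl6* and *Fads2* in WT and LKO livers of the *Gps2*, *Ncor* and *Smrt* lines, where points are libraries and bars are means. In the *Ncor* line *Elovl3* (WT 334 to 463), *Elovl5* and *Elovl6* are higher in LKO without overlap, and *Fads2* is lower without overlap. In the *Gps2* line, with 2 libraries a group, *Elovl5* and *Fads2* are higher and *Elovl6* lower without overlap. No *Fads2* peak was called in either of these lines, and no *Elovl6* peak in the *Gps2* line. Over all genes, 61.5% of such sums were higher in *Gps2* LKO and 42.5% in *Ncor* LKO. The share of all genes without overlap was not counted. The *Gps2* line has its own peak set, so its levels are not comparable with those of the other lines.

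GPS2 ChIP in *Ncor* LKO livers gave lower values at member peaks that did not pass the main test. Of 55 member peaks 0 were called higher or lower (0% and 0.0338% of all peaks), 24 had an unadjusted p under 0.05 and the medians were -1.26 over the members and -1.12 over all peaks. The strongest *Fads2* peak, at -20918 bp, held 83.5, 81.5 and 32.7 in WT and 16.8, 18.3 and 9.87 in LKO (-2.13, SE 0.63, edgeR adjusted p = 0.0761), and the *Elovl5* peak at -71205 bp 50.8, 63.2 and 23.6 against 17.3, 10.6 and 16.1 (-1.63, edgeR adjusted p = 0.0845). Every WT library lay above every LKO library at both. WT library 3 held 3.07% of its tags in peaks, near the 2.45% to 3.15% of the LKO libraries and below the 8.23% and 7.82% of the other WT libraries. Without it 37 member peaks were called lower, and DESeq2 called 16 lower with it.

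PPARα ChIP in *Ncor* LKO livers was not shown to differ from WT at the members. Of 73 member peaks 0 were called by edgeR or DESeq2 and 6 had an unadjusted p under 0.05, beside 0.151% higher and 0.0453% lower over all peaks, with medians of 0.18 and 0.10. The median over the peaks of a gene was 0.55 for *Elovl3*, 0.43 for *Elovl5*, 0.10 for *Elovl1*, 0.04 for *Fads1*, 0.02 for *Elovl2* and -0.02 for *Fads2*, none of which rests on a called peak. WT library 3 held 8.96% of its tags in peaks, below the 19.3% and 18.6% of the other WT libraries. The LKO libraries held 14.7% to 21.1%, so the low library pulls the WT means down and these medians up.

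In *Ppara* KO livers the PPARα antibody recovered much less at the members, as over all peaks. These mice lack the target of the antibody, so the lower signal is a check of the antibody and not a response of the members. Of 52 member peaks 18 fell and 0 rose, beside 27.6% lower and 0.0174% higher over all peaks, with medians of -1.85 and -1.68. The printed regions of *Fads2*, *Elovl5* and *Elovl2* were among those that fell. Over the *Fads2* region the values were 33.3 and 36.7 in WT and 3.43 and 3.67 in KO (-3.27, SE 0.35, edgeR adjusted p = 1.24e-05). Over the *Elovl5* intron region they were 36.8 and 49.0 against 5.49 and 3.67 (-3.19, SE 0.33, edgeR adjusted p = 1.09e-05), and over the upstream *Elovl5* region 20.5 and 29.1 against 2.06 and 0.733 (edgeR adjusted p = 4.06e-05).

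The signal was lower at peaks of other members too. The printed *Elovl2* region went from 25.5 and 17.6 to 0.687 and 0.733 (edgeR adjusted p = 3.57e-05), which is 1 tag in each KO library. The *Elovl6* promoter went from a mean of 11.8 to 1.37 and 0.733 (edgeR adjusted p = 0.00161), and the peak at -21538 bp of *Elovl3* from 17.7 and 12.2 to 4.12 and 2.199 (-2.21, edgeR adjusted p = 0.00338). Peaks of *Fads1* at -33452 bp (16.3 and 18.4 against 4.81 and 0) and of *Elovl1* at 335 bp (7.08 and 9.18 against 2.06 and 1.47) fell as well (edgeR adjusted p = 0.0030 and 0.0379). *Elovl5* had the most, with 9 of its 17 peaks lower, and no peak was named for *Elovl7*. With 2 libraries a group, leaving out either WT library left 0 called, and TMM scaling left 5. The share of tags in peaks was 2.14% to 2.44% in WT and 0.581% to 0.652% in KO.

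NCOR binding fell at part of these peaks in *Ppara* KO livers. Of 91 member peaks 6 fell and 0 rose, beside 2.51% lower and 0.136% higher over all peaks, and the median was -0.32 over both the members and all peaks. The *Fads2* peak at -20916 bp, over the printed region, went from 153, 158 and 175 to 105, 100 and 78.3 (-0.78, SE 0.17, edgeR adjusted p = 0.000936), and the one at -14419 bp from a mean of 20.5 to one of 7.35, without overlap (-1.47, edgeR adjusted p = 0.0135). The *Elovl5* peak at -71461 bp went from 70.7, 59.3 and 69.1 to 36.0, 29.0 and 29.9 (-1.07, edgeR adjusted p = 0.00341), and the one at 35805 bp from 31.7, 33.5 and 36.2 to 22.1, 9.43 and 9.96 (-1.31, edgeR adjusted p = 0.0108). All 6 called peaks belonged to *Elovl5* (4) and *Fads2* (2). Scaled by TMM, 2 were higher and 2 lower.

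GPS2 ChIP in *Ppara* KO livers gave lower values at the members that were not called. Of 30 member peaks 0 passed by edgeR and 0 by DESeq2, 11 had an unadjusted p under 0.05, and 0% of all peaks were called higher and 0.273% lower, with medians of -1.19 and -0.93. The peak over the *Elovl5* intron region held 20.1, 23.4 and 44.6 in WT and 16.8, 12.9 and 6.49 in KO (-1.28, edgeR adjusted p = 0.18), and the *Elovl3* peak at -21502 bp 15.3, 8.45 and 21.6 against 6.55, 3.03 and 2.89 (-1.83, edgeR adjusted p = 0.134). WT and KO libraries did not overlap at either, and with TMM scaling the median over all peaks was 0.01.

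**Figure D3:**
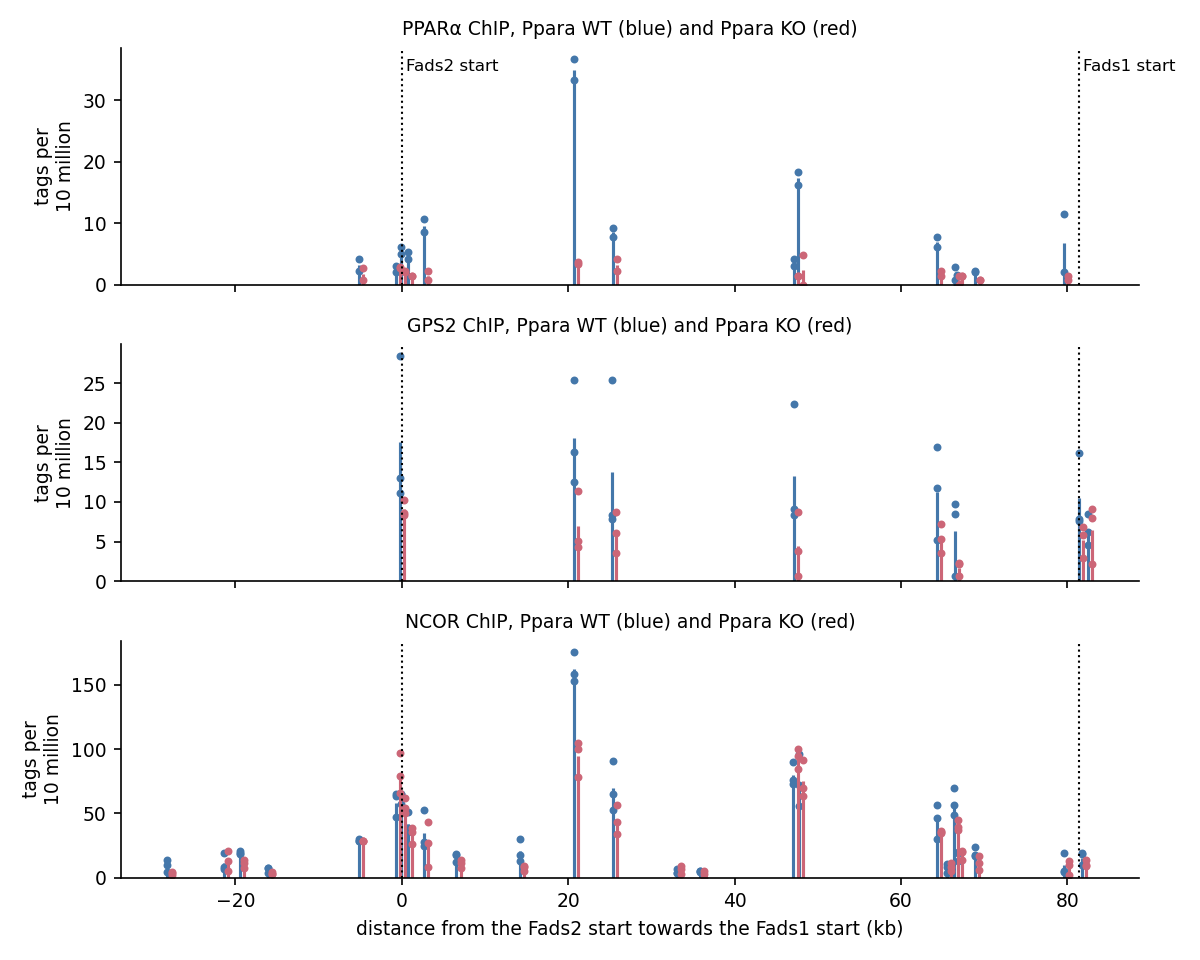
PPARα, GPS2 and NCOR normalized tags (per 10000000) at the peaks named for *Fads2* or *Fads1* in *Ppara* WT (blue) and KO (red) livers, plotted against the distance from the *Fads2* start towards the *Fads1* start in kb, where lines are group means, points are libraries and dotted lines mark the starts. PPARα and NCOR are highest at the same region upstream of *Fads2*, where PPARα falls from 33.3 and 36.7 to 3.43 and 3.67 and NCOR falls from 153, 158 and 175 to 105, 100 and 78.3.

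Of the peaks named for *Fads1* or *Fads2* in the *Ppara* line, 12 of 14 PPARα peaks, 17 of 24 NCOR peaks and 5 of 8 GPS2 peaks lay inside the space between the starts, where the nearest-start rule decides which desaturase a peak is given to. *Elovl6* is poorly covered by name in the factor tables, because most peaks over it carry the name of an overlapping gene, *Gm35986* (12 of 12 for GPS2 and 27 of 28 for PPARα in the *Gps2* line). Taken by position, a choice made after the data were seen, all 12 GPS2 peaks over *Elovl6* (chr3:129235304-129341413, plus strand) were lower in *Gps2* LKO by more than 1 on the log2 scale, 3 of 28 PPARα peaks rose in *Gps2* LKO, and 7 of 17 PPARα peaks not named for *Elovl6* fell in *Ppara* KO, beside the promoter peak that carries its name. For comparison, 99.5% of all GPS2 peaks were lower and 21.5% of all PPARα peaks higher in *Gps2* LKO, and 27.6% of all PPARα peaks were lower in *Ppara* KO. Of 8 Pol II peaks over *Elovl6*, 3 were higher past the same limit, beside 7.57% of all Pol II peaks, and the median log2 ratio was 0.43.

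**Figure D4:**
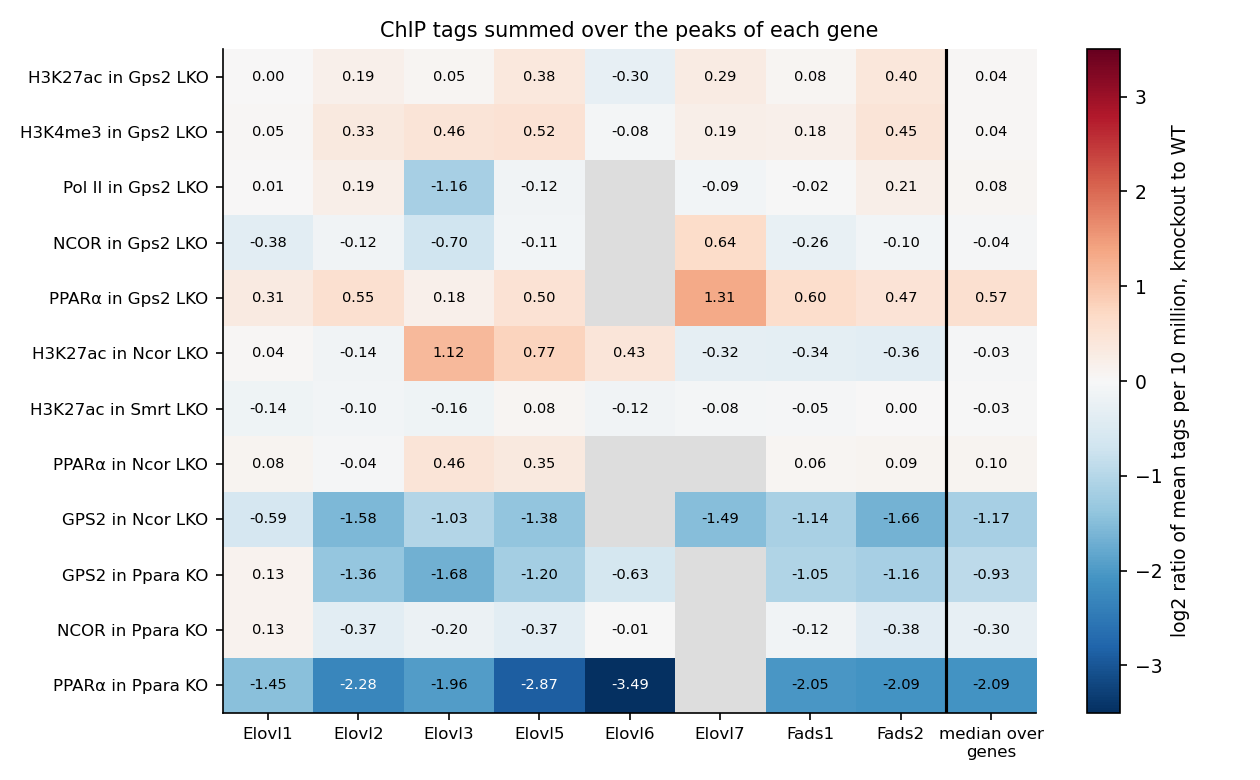
Log2 ratio, knockout to WT, of mean tags summed over the peaks of each member in 12 ChIP comparisons, with the median over genes in the last column and grey where no peak carries the gene's name. PPARα in *Ppara* KO is below WT at every member that has peaks, as at nearly all genes (0.398% of 4272 genes were higher). Pol II in *Gps2* LKO is lowest relative to WT at *Elovl3* (91.8 in WT and 41.2 in LKO).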

How the data were processed

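The deposited RNA table holds read counts per gene, and the ChIP tables hold HOMER tag counts per merged peak, both made by the authors before any normalization. The submitters' processing notes name Bowtie2, HISAT2, HOMER, SAMtools and featureCounts, with mm9, mm10 and GRCm38. ChIP coordinates fit mm9, and 98.6% of 14562 RNA gene coordinates matched GRCm38 against 7.22% for mm9. Counts were tested with edgeR 4.0.16 (quasi-likelihood, R 4.3.3, Benjamini-Hochberg over each whole table), RNA scaled by TMM after edgeR's expression filter (12220 of 14583 genes) and ChIP by total tags, all peaks with a tag being tested. Rows of the joint mark table were tested where they overlapped a deposited peak of that mark in at least 2 libraries. Alternatives were DESeq2 1.42.0, TMM, other filters, the replicate block and leaving out libraries. The code was tested on simulated data. The members and gene lists were chosen with earlier results of these data known. Named peaks are each member's promoter peak (within 1000 bp of the start) and strongest peak and up to 4 called peaks with the lowest adjusted p. Named list genes are up to 4 with the lowest adjusted p. The single-library log2 ratios add 0.5 tags. Motifs and sequences were read from mm9 with pysam 0.24.0, and input libraries were not used here. Tags are PCR copies without molecular identifiers, so intervals cover counting error only.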

Additional observations from a re-analysis of the deposited data

Results flagged for a closer look

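Of the results given above, 3 met the limits set for a closer look. *Elovl6* mRNA in WT library 1, at 6805 normalized counts, stood apart from the other 3 WT libraries, its gap being 0.846 of the group's range (over Dixon's 95% limit for 4 samples, which chance passes in about 1 of 20 groups). The LKO libraries lie far above all 4. The H3K27ac response of *Elovl6* differed between the *Ncor* and *Smrt* lines, by 0.965 on the log2 scale at the peak 17979 bp inside the gene and by 0.609 at the peak 32183 bp inside it, by the test of the difference itself. The call at the latter was lost when any of 8 of the 12 libraries was left out, and the fit with the replicate number as a block called neither (edgeR adjusted p = 0.0519 and 0.14).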

How the results depend on the processing

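No named gene or peak called by a test turned to a call in the opposite direction under any alternative, although with TMM the calls for PPARα in *Gps2* LKO went from 17 higher to 1 lower. The RNA counts (6 higher, 1 lower) held under every setting and with any single library left out (7 called each time), except for the length trend given above. The labels do not say whether the replicate numbers pair the libraries. No comparison with 3 or more pairs had every same-number correlation over 0.1 (RNA 0.028 to 0.139), and in none of those did every library correlate best with its own number. With 2 pairs, the deviations within a group mirror each other, so each comparison gives a single value and cannot show agreement between libraries. The same-number correlation was 0.179 for H3K27ac and 0.27 for H3K4me3 in the *Gps2* line, and -0.0564 for PPARα in the *Ppara* line. The counts of member peaks called moved as follows. For H3K27ac in *Gps2* LKO (1), DESeq2 gave 4, the replicate block 6, testing all peaks 4, and leaving out a library 0 to 5. For H3K4me3 (5), testing all peaks gave 1 and leaving out a library 3 to 5. For NCOR in *Gps2* LKO (0), TMM gave 1 and the block 1. For PPARα in *Gps2* LKO (17), TMM gave 1, DESeq2 1, WT libraries as 3 samples 38, the block 38, and leaving out a library 5 to 19. For H3K27ac in *Ncor* LKO (9), leaving out a library gave 5 to 10. For the *Ncor* and *Smrt* difference (2), DESeq2 gave 4, the block 0 and leaving out a library 1 to 4. For GPS2 in *Ncor* LKO (0), TMM gave 2, the edgeR expression filter 7, DESeq2 16, the block 17, and leaving out a library 0 to 37, with 37 without WT library 3. For PPARα in *Ncor* LKO (0), TMM gave 2. For NCOR in *Ppara* KO (6), DESeq2 gave 2, the block 3 and leaving out a library 2 to 6. For PPARα in *Ppara* KO (18), TMM gave 5, the block 0 and leaving out a library 0 to 17. For the single-library pairs, TMM gave 26 of 48 for GPS2, of which 1, a *Fads2* intron peak with 12 tags in WT and 2 in LKO, turned from lower to higher, and adding *Elovl6* by position gave 7 for Pol II (4). Why the counts moved was not tested. Among values of single genes and peaks, 1285 held, 40 gained and 80 lost a call and 90 moved. For a gene or peak, moved means that the fold change took the other sign without a call in either setting. Depth limits the peaks with 1 to 3 tags a library, and comparisons of 2 libraries a group have few degrees of freedom.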
